A study of Homo sapiens with 15 samples.

Results

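ATRA, all-trans retinoic acid, is an active metabolite of vitamin A, and 10 genes with no role in retinoid metabolism were followed here through every labelled library of one RNA-seq experiment. They are TNFAIP2, TGM2, GPRC5A, GPRC5B, ELF3, EPB41L1, PTPRJ, IFFO2, MFGE8 and VSIR, 10 of the 43388 gene symbols in each count file. The genes were chosen by their response, because ATRA raised them in these same libraries, so their ATRA values are given as a description and carry no test. All 10 passed the filter on low counts, which left 15339 genes. The oxygen effect at a fixed treatment, which the choice did not use, was tested on the same libraries. Libraries labelled with the ethanol vehicle were compared, as a description, with controls whose labels name no vehicle. That contrast equals the difference between the ATRA effects against these control sets.

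The experiment asked how ATRA changes the transcriptome of A549 cells kept in high oxygen. A549 is an established human lung adenocarcinoma line of alveolar epithelial origin, and every library came from this single line without a genetic change. ATRA at 1e-05 mM, or its ethanol vehicle, was given for 24 hours before an exposure of 72 hours to 95% oxygen (hyperoxia) or 21% oxygen (normoxia). At each oxygen exposure there were 3 ATRA libraries, 2 vehicle libraries and 2 libraries labelled with the oxygen exposure alone, which are called no vehicle below. The absence of ethanol in these is assumed, because their labels do not state it, and no pretreatment is given for them. The labels do not say that libraries of a group were separate cultures, so p-values measure only the spread between these libraries, which may be technical.

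Counts on genes ranged from 2642377 to 5605072 over the 14 labelled libraries, and 3 counts correspond to 0.535 to 1.14 CPM, counts normalized to a common library size; this limit covers counting error only. The epithelial keratins KRT8 (4275 to 23997 counts) and KRT18 (1890 to 13510 counts) were abundant in every library and KRT19 (77 to 539 counts) and CDH1 (35 to 354 counts) were lower, while EPCAM had only 0 to 24 counts. Of the listed fibroblast, blood and endothelial genes, COL1A1 had 0 to 38 counts, CDH5 had 0 to 20, and the other 9 had 0 to 5, with DCN, CD3E and VWF at 0 counts throughout. Replicate 1 of hyperoxia without vehicle stood apart, with counts for 12657 genes against 16465 to 20108 in the others. For the comparisons that use its group, the main values are therefore also given without it.

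Retinoic acid acts mainly through retinoic acid receptors, nuclear receptors that pair with retinoid X receptors and bind repeated hexamer half-sites in DNA. Ligand binding turns the pair from a repressor into an activator of nearby genes. In lung epithelium this pathway takes part in branching, septation and repair, and its best known targets break down or store the ligand itself. The genes described here have other roles, as cell surface receptors, secreted or matrix proteins, cytoskeletal linkers, a transcription factor and a gene induced by tumor necrosis factor.

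The sequences before the gene starts are shown because shared regulatory letters are the first thing to look for in genes that move together. RefSeq windows of GRCh38.p14, from 250 bases before to 50 bases after the start, matched 7 of the 10 genes (all but GPRC5A, PTPRJ and TGM2). The receptor half-site was searched on both strands in its main form AGGTCA and in the forms that differ from it at the first base (GGGTCA), at the third base (AGTTCA) or at both of these (GGTTCA). It was in 3 of the 7 windows (GPRC5B, MFGE8 and TNFAIP2), and in 38.7% of all 27305 windows. The TNFAIP2 window (chr14:103123211-103123510, plus strand) lies inside the gene, downstream of the annotated gene start given for it below. The stretches that hold the half-sites of GPRC5B (chr16:19885835-19885884, minus strand) and MFGE8 (chr15:88913580-88913629, minus strand) run from 250 to 201 bases before the start. They are printed with the half-site and any GC box in capitals.
GPRC5B: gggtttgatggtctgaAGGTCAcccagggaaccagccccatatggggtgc
MFGE8: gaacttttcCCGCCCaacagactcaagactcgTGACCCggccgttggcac

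IFFO2 and ELF3 show the contrast between the kinds of window in this group. The 100 bases before the IFFO2 start (chr1:18956677-18956776, minus strand) hold GC boxes (GGGCGG, searched on both strands, in capitals), and the IFFO2 window is 78% G and C against a median of 58.3% over all windows. In ELF3, the 30 bases from 46 to 17 before its start (chr1:202010541-202010570, plus strand) hold a TATA box (TATAAA, both strands, in capitals).
IFFO2: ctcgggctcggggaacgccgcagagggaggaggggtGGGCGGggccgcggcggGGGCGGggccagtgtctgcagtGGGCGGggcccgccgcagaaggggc
ELF3: caggggacacacTATAAAgccctgagctca
A GC box was in 5 of the 7 windows and in 44.6% of all windows, and a TATA box was in ELF3 alone and in 12% of all.

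Direct repeats, in which an RAR half-site follows another on the same strand after a short spacer, were searched within 5000 bases of each start. The half-site form that differs from the main form at both bases was left out of this search. The shares below therefore cover a narrower set of repeats. With a spacer of 5 bases such repeats were in 0 of the 7 members and near 1.54% of all starts. With a spacer of 1 base they were in 0 of 7 and near 3.21%. With a spacer of 2 bases they were near EPB41L1 and MFGE8, and near 31.7% of all starts. The 3 copies had the same letters, printed with the half-sites in capitals, and this run is close to a stretch of the common Alu repeat of the human genome. The EPB41L1 copies lie at chr20:36087733-36087746 and chr20:36095191-36095204 (both on the minus strand) and the MFGE8 copy at chr15:88916810-88916823 (plus strand).
EPB41L1 and MFGE8: AGGTCAggAGTTCA
These matches are descriptions of letters and say nothing of binding in these cells.

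With ATRA, every one of the 10 genes was higher than in every control library at both oxygen exposures, vehicle and no vehicle libraries together. This separation is what the genes were chosen for, and 6.65% of all tested genes in hyperoxia and 6.32% in normoxia lay as completely above their controls. Fold changes are given on the log2 scale with their standard error. Against vehicle, the 10 log2 fold changes lay between 0.57 and 1.67 in hyperoxia and between 0.75 and 1.89 in normoxia. Their medians were 1.16 and 1.12, where the median of all genes was 0.00 at both exposures. An adjusted p under 0.05 was reached by 9 members in hyperoxia, where 0.489% of all genes were called higher, and by 10 in normoxia, where 0.300% were. Against no vehicle, 7 members passed in hyperoxia (0.261% of all genes called higher) and 10 in normoxia (0.280%). A fit of the hyperoxia ATRA and no vehicle libraries alone called only TNFAIP2 of the members, and 3 genes in all. The rule used these contrasts, so nothing is read from the counts. In bulk RNA, a change in RNA per cell and a change in the share of cells that express a gene cannot be told apart.

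**Figure D1:**
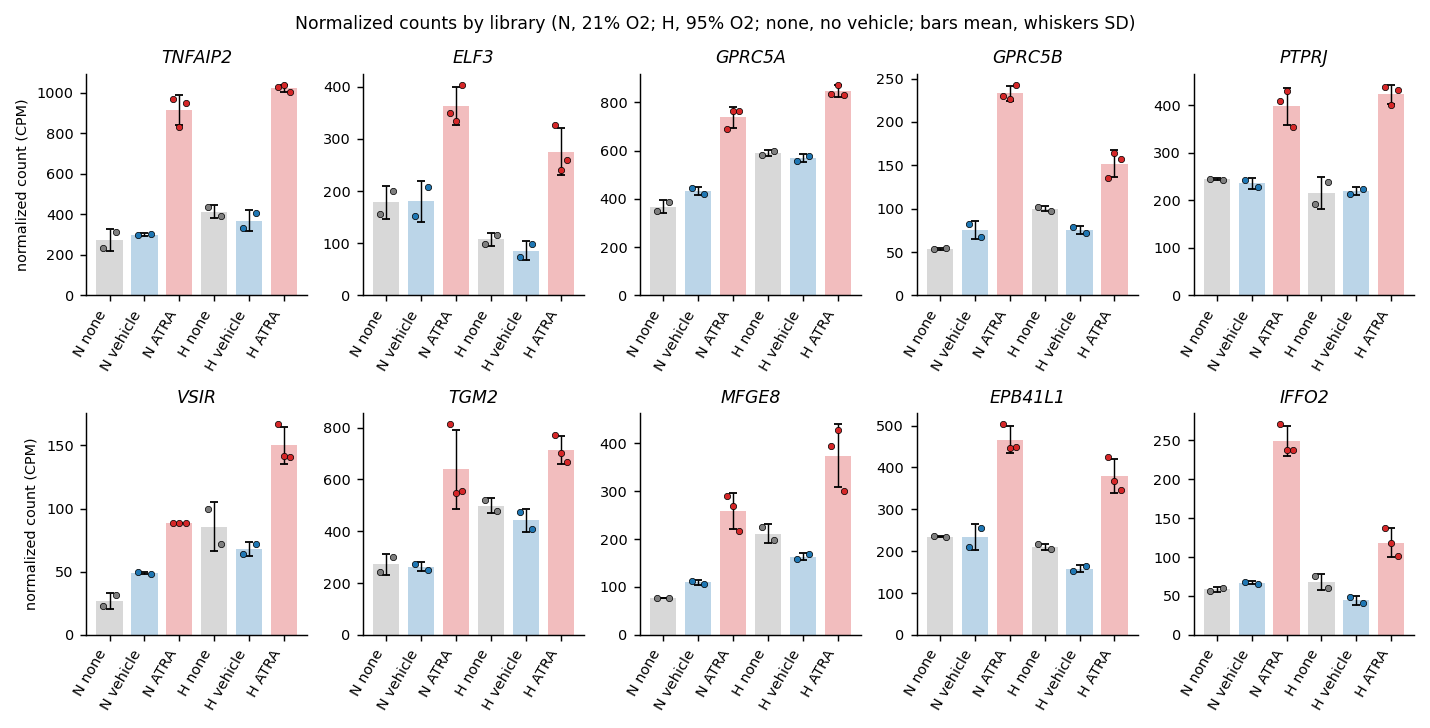
Normalized count (CPM, vertical axes from 0) of each of the 10 genes in the 14 labelled libraries, with a point per library, bars at the group mean and whiskers of 1 SD; N is 21% oxygen, H is 95% oxygen and none is no vehicle. In each panel the red ATRA points lie above all control points at the same oxygen exposure.

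GPRC5A, on chromosome 12 from 12891562 to 12917937, encodes an orphan receptor of the class C G protein-coupled family that was named for its induction by retinoic acid and is abundant in lung epithelium. In hyperoxia its ATRA libraries had 834, 873 and 828 CPM, the vehicle libraries 556 and 579 CPM and the no vehicle libraries 581 and 597 CPM. In normoxia the same groups had 688, 762 and 765 CPM, 443 and 422 CPM, and 348 and 387 CPM. ATRA thus raised GPRC5A from a control level that was already higher in hyperoxia, and its changes were the smallest or among the smallest of the 10. The log2 fold change against vehicle was 0.57 ± 0.10 (SE) in hyperoxia and 0.77 ± 0.11 in normoxia. Against no vehicle it was 0.52 ± 0.10 and 1.01 ± 0.11.

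GPRC5B, on chromosome 16 from 19856691 to 19885634, encodes a related orphan receptor. In hyperoxia it had 135, 164 and 157 CPM with ATRA, 79.0 and 71.9 CPM with vehicle and 102 and 97.7 CPM with no vehicle. In normoxia it had 230, 226 and 243 CPM with ATRA, 82.7 and 67.9 CPM with vehicle and 53.2 and 54.7 CPM with no vehicle. The highest libraries were therefore those of normoxia with ATRA, and no hyperoxia library reached them. Against vehicle, GPRC5B changed by 1.01 ± 0.14 (log2, SE) in hyperoxia and 1.63 ± 0.14 in normoxia, and against no vehicle by 0.60 ± 0.14 and 2.11 ± 0.15. The gene's last part overlaps IQCK on the opposite strand, which held 31% as many counts and itself changed with ATRA by 1.50 ± 0.26 in normoxia and 0.45 ± 0.25 in hyperoxia against vehicle. Whether the counting used strand is not given in the sources used here, and the part of shared reads in the GPRC5B values was not tested.

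PTPRJ, on chromosome 11 from 47980559 to 48170839, encodes a receptor-type tyrosine phosphatase that removes phosphate from growth factor receptors. Its hyperoxia libraries had 438, 400 and 432 CPM with ATRA, 213 and 225 CPM with vehicle, and 192 and 239 CPM with no vehicle. Its normoxia libraries had 410, 430 and 355 CPM, 244 and 228 CPM, and 246 and 243 CPM. The ATRA ranges of the oxygen exposures overlapped, and within each control treatment both hyperoxia libraries lay below those of normoxia. The log2 fold changes of PTPRJ were 0.95 ± 0.13 (SE) in hyperoxia and 0.75 ± 0.13 in normoxia against vehicle, and 0.98 ± 0.13 and 0.70 ± 0.13 against no vehicle.

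VSIR, on chromosome 10 from 71747556 to 71773520, encodes an immunoglobulin domain protein known as an immune checkpoint on blood cells. In normoxia it had 22.6 and 31.2 CPM with no vehicle, 49.4 and 48.4 CPM with vehicle and 88.7, 88.9 and 88.2 CPM with ATRA. In hyperoxia it had 99.3 and 72.3 CPM with no vehicle, 64.4 and 72.2 CPM with vehicle and 167, 142 and 141 CPM with ATRA. A hyperoxia library without ATRA, replicate 1 of no vehicle, thus lay above all normoxia libraries with it. Against vehicle VSIR changed by 1.14 ± 0.18 (log2, SE) in hyperoxia and 0.86 ± 0.18 in normoxia, and against no vehicle by 0.80 ± 0.17 and 1.72 ± 0.19. The gene lies within CDH23 on the opposite strand, which held 6.81% as many counts. Of blood cell markers, PTPRC had 0 to 1 counts in every library.

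TGM2, on chromosome 20 from 38127385 to 38168475, encodes tissue transglutaminase, which cross-links proteins in the cell and in the matrix. In hyperoxia it had 771, 703 and 667 CPM with ATRA, 474 and 409 CPM with vehicle and 519 and 479 CPM with no vehicle. In normoxia it had 814, 546 and 555 CPM with ATRA, 275 and 250 CPM with vehicle and 243 and 301 CPM with no vehicle. Normoxia ATRA replicate 1 was well above its group, and the controls were higher in hyperoxia than in normoxia without overlap. The changes of TGM2 with ATRA were 0.69 ± 0.17 (log2, SE) in hyperoxia and 1.29 ± 0.17 in normoxia against vehicle, and 0.52 ± 0.16 and 1.23 ± 0.17 against no vehicle.

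MFGE8, on chromosome 15 from 88898683 to 88913379, encodes a secreted glycoprotein that bridges dying cells and the integrins of phagocytes. Its hyperoxia libraries had 394, 428 and 300 CPM with ATRA, 159 and 168 CPM with vehicle and 225 and 198 CPM with no vehicle. In normoxia they had 290, 269 and 217 CPM with ATRA, 113 and 106 CPM with vehicle and 77.2 and 77.0 CPM with no vehicle. Both control groups and the ATRA group were higher in hyperoxia, again with no overlap. MFGE8 changed by 1.19 ± 0.16 (log2, SE) in hyperoxia and 1.24 ± 0.16 in normoxia against vehicle, and by 0.82 ± 0.16 and 1.74 ± 0.17 against no vehicle.

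EPB41L1, on chromosome 20 from 36091414 to 36232799, encodes a protein that links membrane proteins to the spectrin and actin skeleton. In hyperoxia it had 426, 368 and 346 CPM with ATRA, 152 and 164 CPM with vehicle and 216 and 205 CPM with no vehicle. In normoxia it had 504, 447 and 449 CPM with ATRA, 211 and 255 CPM with vehicle and 236 and 234 CPM with no vehicle. Here all hyperoxia libraries lay below all normoxia libraries of the same treatment. The log2 fold change of EPB41L1 was 1.26 ± 0.13 (SE) in hyperoxia and 1.00 ± 0.13 in normoxia against vehicle, and 0.85 ± 0.13 and 0.99 ± 0.13 against no vehicle. LOC105372602, a noncoding RNA on the opposite strand of the same locus, held 14.3% as many counts and changed by 0.99 ± 0.25 in hyperoxia and 1.01 ± 0.25 in normoxia against vehicle. The part of shared reads was not tested.

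IFFO2, on chromosome 1 from 18904280 to 18956676, encodes an intermediate filament family protein. In normoxia it had 271, 238 and 238 CPM with ATRA, 68.5 and 65.6 CPM with vehicle and 56.4 and 60.2 CPM with no vehicle. In hyperoxia it had 137, 118 and 101 CPM with ATRA, 48.5 and 40.4 CPM with vehicle and 75.7 and 60.6 CPM with no vehicle. The ATRA libraries of normoxia thus held the highest values by a wide gap. IFFO2 changed by 1.89 ± 0.17 (log2, SE) in normoxia and 1.42 ± 0.17 in hyperoxia against vehicle, and by 2.09 ± 0.17 and 0.80 ± 0.16 against no vehicle.

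ELF3, on chromosome 1 from 202010587 to 202017183, encodes an ETS family transcription factor of epithelial cells. In normoxia it had 350, 334 and 404 CPM with ATRA, 153 and 208 CPM with vehicle and 156 and 201 CPM with no vehicle. In hyperoxia it had 326, 240 and 259 CPM with ATRA, 73.2 and 98.7 CPM with vehicle and 98.5 and 116 CPM with no vehicle. All control libraries of hyperoxia lay below all control libraries of normoxia. ELF3 had the largest change of the 10 in hyperoxia, 1.67 ± 0.19 (log2, SE) against vehicle and 1.37 ± 0.19 against no vehicle, and changed by 1.00 ± 0.19 and 1.02 ± 0.19 in normoxia.

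TNFAIP2, on chromosome 14 from 103121469 to 103137439, encodes a protein induced by tumor necrosis factor that is related to an exocyst subunit and takes part in membrane protrusions. Its hyperoxia libraries had 1030, 1037 and 1004 CPM with ATRA, 332 and 408 CPM with vehicle and 435 and 390 CPM with no vehicle. Its normoxia libraries had 970, 832 and 949 CPM, 296 and 305 CPM, and 235 and 313 CPM. The spread within groups was small beside the gap to the controls at both oxygen exposures. The log2 fold changes of TNFAIP2 were 1.47 ± 0.14 (SE) and 1.61 ± 0.14 against vehicle in hyperoxia and normoxia, and 1.31 ± 0.14 and 1.75 ± 0.14 against no vehicle.

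The size of the ATRA effect differed between the control sets. In hyperoxia, 9 of the 10 changes were smaller against no vehicle than against vehicle (median 0.81 against 1.16), with PTPRJ the exception. In normoxia, 7 were larger against no vehicle (median 1.48 against 1.12), led by VSIR, MFGE8 and GPRC5B. Without the library that stood apart, the hyperoxia changes against no vehicle ran from 0.50 for GPRC5A to 1.39 for TNFAIP2, and those of VSIR, IFFO2 and PTPRJ moved most, to 1.05, 0.97 and 0.82. These comparisons share their ATRA libraries, so the values are set side by side only.

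**Figure D2:**
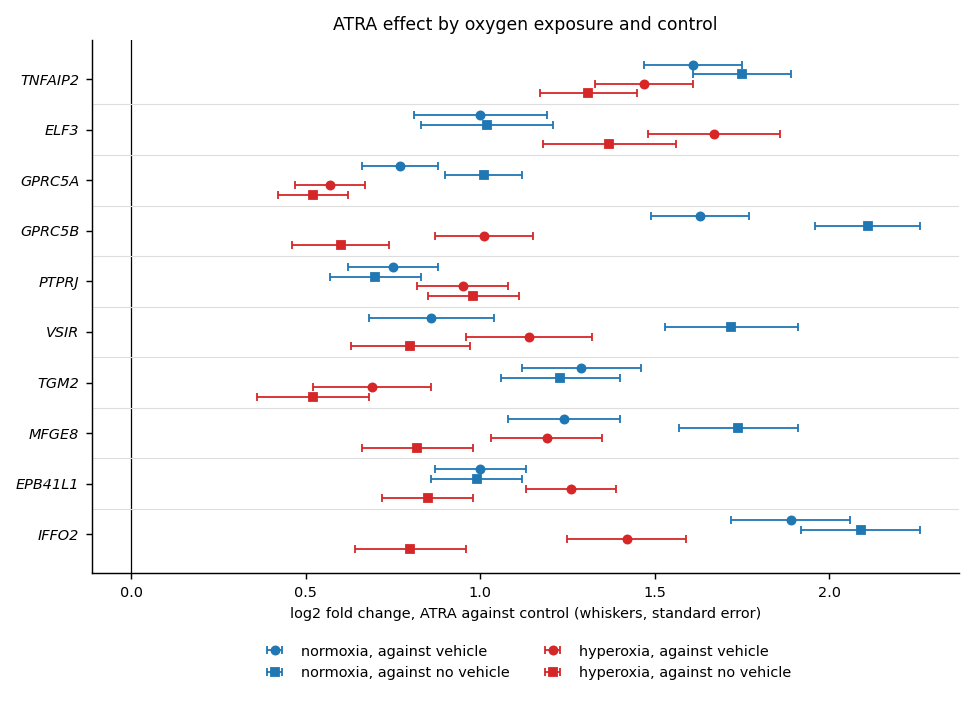
Log2 fold change of ATRA against control for each gene (horizontal axis, whiskers of 1 standard error), in normoxia (blue) and hyperoxia (red), against vehicle (circles) or no vehicle (squares). All 40 points lie above 0, and the blue and red squares are farthest apart for GPRC5B and IFFO2.

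The difference between the ATRA effects, hyperoxia minus normoxia, depended on the control as well. Against vehicle it was 0.67 ± 0.26 (log2, SE) for ELF3, 0.28 ± 0.25 for VSIR, 0.26 ± 0.18 for EPB41L1 and 0.20 ± 0.18 for PTPRJ. It was -0.63 ± 0.19 for GPRC5B, -0.59 ± 0.23 for TGM2 and -0.47 ± 0.23 for IFFO2, while that of GPRC5A was -0.20 ± 0.15, of TNFAIP2 -0.14 ± 0.19 and of MFGE8 -0.05 ± 0.22. These differences, and those against no vehicle, are a description, because the genes were chosen by their ATRA effects in these libraries. An adjusted p under 0.05 was reached by 0 members and by 0.0261% of all genes, and nothing is read from that count.

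Against no vehicle, the ATRA effect was smaller in hyperoxia for 8 of the 10 genes, with a median difference of -0.60 where the median of all genes was 0.10. GPRC5B differed by -1.51 ± 0.19 (log2, SE) and IFFO2 by -1.30 ± 0.23. MFGE8 and VSIR each differed by -0.92, with standard errors of 0.22 and 0.25, and TGM2 by -0.72 ± 0.23. An adjusted p under 0.05 was reached by 1 member, GPRC5B, and by 0.0196% of all genes, and again nothing is read from the count. PTPRJ and ELF3 went the other way, by 0.27 ± 0.18 and 0.34 ± 0.26. Without the library that stood apart, GPRC5B differed by -1.48, IFFO2 by -1.12 and VSIR by -0.67.

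Several of the genes differed between hyperoxia and normoxia in the absence of ATRA. The question here is the oxygen effect at a fixed treatment, which the choice of genes did not use. The vehicle, no vehicle and ATRA libraries are nevertheless all libraries that the genes were chosen on. With vehicle, TGM2, MFGE8 and GPRC5A rose and ELF3 and EPB41L1 fell (quasi-likelihood test in edgeR, p adjusted by Benjamini-Hochberg for 15339 genes). Of all genes, 4.62% were called higher and 4.64% lower. TGM2 rose by 0.75 ± 0.18 (log2, SE; adjusted p = 0.0132), MFGE8 by 0.58 ± 0.17 (adjusted p = 0.0459) and GPRC5A by 0.39 ± 0.11 (adjusted p = 0.0394). ELF3 fell by 1.07 on the log2 scale (SE 0.20, adjusted p = 0.00286) and EPB41L1 fell by 0.56 (SE 0.14, adjusted p = 0.0163). The other 5 did not pass, with IFFO2 at -0.60 ± 0.18 (adjusted p = 0.0502), VSIR at 0.49 ± 0.19 (adjusted p = 0.150), TNFAIP2 at 0.30 ± 0.15, GPRC5B at 0.01 ± 0.15 and PTPRJ at -0.11 ± 0.14. With 2 libraries a group these calls depended on each library: 0 to 2 members passed when a vehicle library was left out, 0 of them without hyperoxia vehicle replicate 1 or normoxia vehicle replicate 2.

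With no vehicle, 6 members rose in hyperoxia and 1 fell, where 7.57% of all genes were called higher and 7.58% lower. VSIR rose by 1.68 ± 0.20 (log2, SE; adjusted p = 4.06e-05) and MFGE8 by 1.46 ± 0.18 (adjusted p = 4.98e-05). GPRC5B rose by 0.89 ± 0.15 (adjusted p = 0.000967), TGM2 by 0.88 ± 0.18 (adjusted p = 0.00364), GPRC5A by 0.68 ± 0.11 (adjusted p = 0.000811) and TNFAIP2 by 0.59 ± 0.15 (adjusted p = 0.0131), all from edgeR. ELF3 fell by 0.74 (SE 0.20, adjusted p = 0.0226), and IFFO2, EPB41L1 and PTPRJ were at 0.23, -0.16 and -0.18. Without the library that stood apart, VSIR (1.43), MFGE8 (1.36), GPRC5B (0.85), TGM2 (0.82) and GPRC5A (0.70) still passed, whereas TNFAIP2 (0.51, adjusted p = 0.0697) and ELF3 (-0.63, adjusted p = 0.0955) did not. In a fit of the 4 no vehicle libraries alone, 0 of the 10 passed, and 58 of all genes did.

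With ATRA, VSIR and MFGE8 rose in hyperoxia and IFFO2 and GPRC5B fell, where 6.45% of all genes were called higher and 6.43% lower. VSIR rose by 0.76 ± 0.15 (log2, SE; adjusted p = 0.00345 from edgeR) and MFGE8 by 0.53 ± 0.14 (adjusted p = 0.0176). IFFO2 fell by 1.06 (SE 0.14, adjusted p = 0.000102) and GPRC5B fell by 0.62 (SE 0.12, adjusted p = 0.00248). IFFO2 and GPRC5B, the pair with the highest ATRA effects in normoxia against either control, thus had fewer counts with ATRA in hyperoxia than with ATRA in normoxia. The other 6 did not pass, with values from -0.40 ± 0.16 for ELF3 to 0.19 ± 0.09 for GPRC5A. PTPRJ, at 0.09 ± 0.11 (95% interval -0.15 to 0.32), passed in none of the 3 oxygen comparisons. IQCK, the gene opposite GPRC5B, fell as well, by 0.77 (SE 0.22, adjusted p = 0.027).

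**Figure D3:**
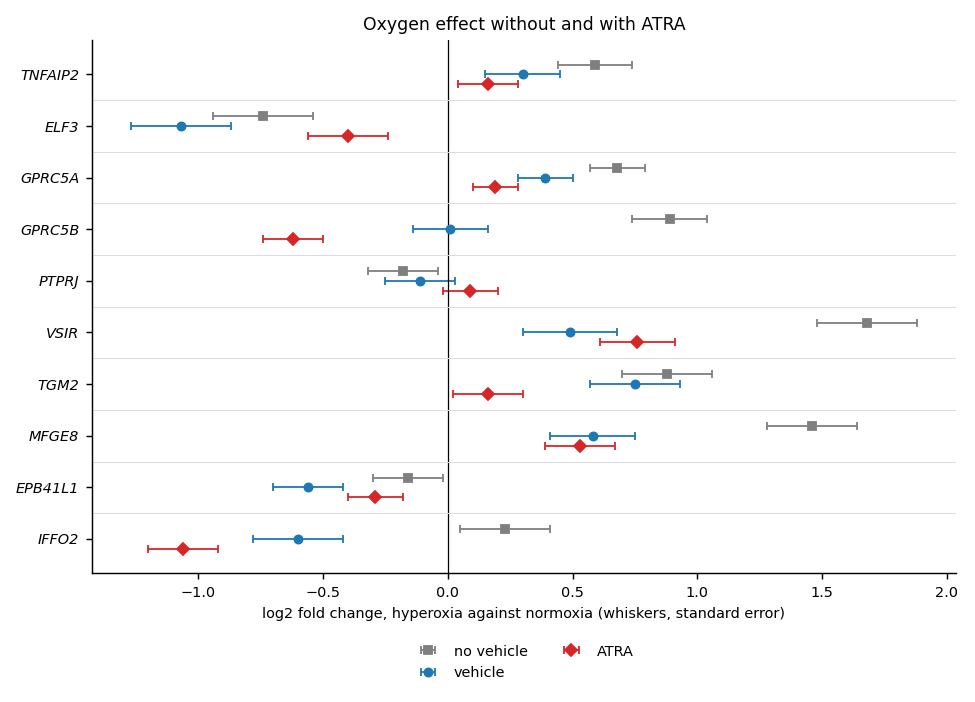
Log2 fold change of hyperoxia against normoxia for each gene (horizontal axis, whiskers of 1 standard error) in no vehicle (gray squares), vehicle (blue circles) and ATRA libraries (red diamonds). MFGE8, VSIR, TGM2, GPRC5A and TNFAIP2 lie to the right of 0 in all 3, ELF3 and EPB41L1 to the left in all 3, and GPRC5B, IFFO2 and PTPRJ change side between no vehicle and ATRA.

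The vehicle libraries were compared with the no vehicle libraries at each oxygen exposure. The absence of ethanol in the no vehicle libraries is assumed, and their pretreatment is not given, so a difference need not come from ethanol. This contrast equals the difference between the ATRA effects against the control sets, which the choice used, so its values are a description. In hyperoxia 0 of the 10 genes passed the adjusted threshold (0.00652% of all genes did). An unadjusted p under 0.05 was reached there by 4 of the 10, against 1366 of all 15339 genes. In normoxia 0 passed (0.00% of all genes), and 3 had an unadjusted p under 0.05, against 133 of all 15339 genes. Nothing is read from these counts. DESeq2 called 0 of the members at either exposure. The vehicle libraries were below both no vehicle libraries in 7 members in hyperoxia, as in 14.6% of all genes, and above both in 5 in normoxia, as in 16.1% of all genes. VSIR, for example, was at -0.33 ± 0.19 (log2, SE) in hyperoxia and 0.87 ± 0.20 in normoxia, and GPRC5B at -0.40 ± 0.15 and 0.47 ± 0.15. Without the library that stood apart, the hyperoxia values were -0.08 for VSIR and -0.37 for GPRC5B, and that of PTPRJ changed from 0.03 to -0.12. A p that misses the threshold does not show that vehicle and no vehicle libraries were alike.

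Per kilobase of exon, TNFAIP2 was the most abundant of the 10 with ATRA, at 202 CPM per kilobase in hyperoxia and 181 in normoxia. GPRC5A (110 and 96.4) and TGM2 (89.8 and 80.4) came next in the same order at both exposures. The other 7 ranged with ATRA from 19.2 (IFFO2) to 45.0 (MFGE8) in hyperoxia and from 17.2 (VSIR) to 50.5 (ELF3) in normoxia. With vehicle in hyperoxia, TNFAIP2 and GPRC5A were at 73.1 and 74.1, a gap smaller than the spread between libraries. These levels rest on total exon length and do not take account of which isoform the cells use.

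**Figure D4:**
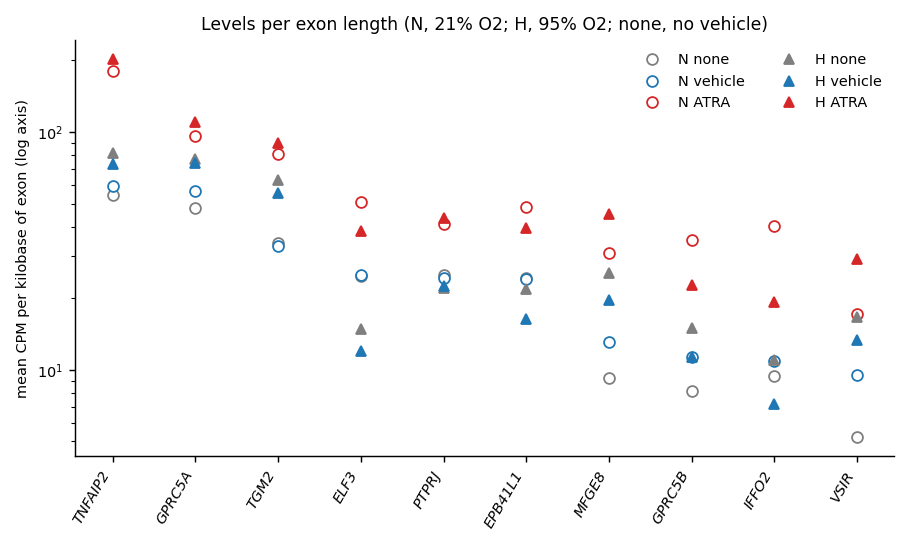
Mean CPM per kilobase of exon in each of the 6 groups (vertical log axis), with genes ordered by their level in normoxia with vehicle; open circles are 21% oxygen, filled triangles 95% oxygen, and red is ATRA. TNFAIP2, GPRC5A and TGM2 are the highest of the 10 in every group.

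The relatives of the 10 genes by family were examined in the same ATRA comparisons. Of 34 relatives by family, 21 passed the filter on low counts, and against vehicle 0 of these were called with ATRA at either exposure, where 0.489% of all genes in hyperoxia and 0.300% in normoxia were called higher and 0.267% and 0.156% lower. The relatives had medians of 0.10 (log2) in hyperoxia and 0.14 in normoxia. At an unadjusted p under 0.05 there were 4 of 21 in hyperoxia, against 1215 of all 15339 genes, and 1 of 21 in normoxia, against 802. Against the mean of both control groups, EXOC3L4 was called higher in hyperoxia and EPB41L4A in normoxia, where 116 and 93 of all 15339 genes were. The hyperoxia no vehicle libraries ranged from 0 to 0.326 CPM for EXOC3L4, below the CPM of 3 counts. A value without the library that stood apart is not given for this call. GPRC5C, which shares a family with GPRC5A and GPRC5B, was at -0.02 ± 0.24 (log2, SE) in hyperoxia and -0.03 ± 0.25 in normoxia. EHF, an epithelial ETS factor like ELF3, was at 0.94 ± 0.43 and 0.32 ± 0.40. Of the relatives of EPB41L1, EPB41L2 was at -0.75 ± 0.26 and 0.00 ± 0.26, and EPB41L4A at 0.64 ± 0.24 and 0.91 ± 0.24 against vehicle. IFFO1 was at -0.56 ± 1.27 and 1.47 ± 1.62, and EXOC3L4, which like TNFAIP2 belongs to the exocyst-related family, at 2.34 ± 0.97 and 1.48 ± 0.93, with wide errors at low counts. CD274, a B7 family relative of VSIR, was at 0.35 ± 1.49 and 0.05 ± 1.79, and PTPRH, a phosphatase of the PTPRJ subfamily, at -0.14 ± 0.88 and 0.43 ± 0.91. The listed relatives of TGM2 and MFGE8 did not pass the filter.

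TNFAIP2 is known as a target of NF-kB, a transcription factor of inflammatory signalling. Of 25 other listed targets, 19 were tested, and against vehicle with ATRA 0 were called higher at either exposure, where 0.489% and 0.300% of all genes were. In hyperoxia NFKB2, a subunit of NF-kB, fell by 1.03 (SE 0.17, adjusted p = 0.00699 from edgeR) and BIRC3, an inhibitor of apoptosis, fell by 0.88 (SE 0.18, adjusted p = 0.0268), and the list's median was -0.30. Of all genes, 0.267% were called lower in that comparison. When the control was no vehicle, NFKB2 alone was called lower in hyperoxia (median -0.23, and -0.12 without the library that stood apart), where 26 of all 15339 genes were. When it was the mean of both control groups, NFKB2 and BIRC3 were called lower there (median -0.22), where 61 of all 15339 genes were. In normoxia 0 of the 19 were called lower against vehicle, no vehicle or their mean, where 24, 24 and 48 of all 15339 genes were. Against vehicle 11 of the 19 lay above 0 (median 0.06), as did 7674 of all genes. Against no vehicle 15 did (median 0.38), as did 7471 of all genes. Against the mean of both control groups 14 did (median 0.30), as did 7663 of all genes. The 3 genes of retinoid metabolism that were called higher at both exposures, of 15 tested from 21 listed, were CYP26B1, which breaks down ATRA, DHRS3, which reduces retinal, and STRA6, a receptor for retinol uptake. These calls are against vehicle, where 0.489% of all genes in hyperoxia and 0.300% in normoxia were called higher. CYP26B1 rose by 4.13 ± 0.39 (log2, SE; adjusted p = 3.91e-05 from edgeR) in hyperoxia and by 3.71 ± 0.38 in normoxia, more than any of the 10 members.

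Across the 14 libraries, the mean z score of log2 CPM over the 10 genes lay between 0.82 and 1.08 in ATRA libraries and between -1.19 and -0.30 in the controls. TNFAIP2 followed the mean of the other 9 most closely (Pearson r = 0.99) and ELF3 least (r = 0.70), with VSIR at 0.79 and the others from 0.85 to 0.93. Among genes outside the 10, those most like their mean were CYP26B1 (r = 0.97), DHRS3 and ALDH4A1 (0.96), LOXL2 (0.95), TFPI2, SLC29A3 and TGFBI (0.94), and KRT80, TXK and COL4A2 (0.92). LOXL2 encodes an enzyme that cross-links collagen, TGFBI a matrix protein and COL4A2 a basement membrane collagen chain. These correlations are descriptions over 14 libraries that share their treatments, and 3 of the 10 genes were also among the 10 most alike by Spearman correlation.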

How the data were processed

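RNA-seq of A549 cells covered 14 labelled libraries in 6 groups. The deposited values are raw counts per gene symbol, with no normalization, which the authors made by trimming (Trimmomatic 0.38), alignment to the hg38 genome (HISAT2) and counting (HTSeq). The annotation release and the strand setting of the counting are not given in the sources used here, and 48.6% to 55.3% of reads fell on no feature. With the other uncounted classes, 75.2% to 78.4% of reads in the labelled libraries were not counted on a gene. A library whose title and treatment labels disagree entered no comparison.

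The analysis used R 4.3.3 and edgeR 4.0.16 (TMM normalization, filterByExpr with a minimum count of 10 and a minimum total of 15, quasi-likelihood fit of 6 groups, prior count 2 for log2 CPM). P-values were adjusted by Benjamini-Hochberg over 15339 genes, called means an adjusted p under 0.05, and CPM are normalized counts. DESeq2 1.42.0, which the authors used, was an alternative, as were RLE size factors, no filter, 10 libraries without the no vehicle groups, only the groups compared, leaving out each library in turn, Spearman correlation and promoter windows of 250 bases. A contrast of the vehicle effects was added after seeing the data. Genes were named by a rule covering the 10 members, listed genes called with ATRA against vehicle, the closest relatives, genes overlapping a member with at least 10% as many counts, and the 10 genes most correlated with the members. The members and gene lists were chosen with earlier results of these data known. The scripts were tested on simulated counts for ATRA against vehicle in hyperoxia. There edgeR recovered 27.0% of 2-fold changes and DESeq2 40.0%, and of larger changes 56.0% and 64.0%. Of their calls, 8.79% and 25.2% were genes left unchanged, so many real changes can miss the threshold. Positions and promoters are those of RefSeq for GRCh38.p14, and plots used matplotlib 3.10.9 in Python 3.11.15.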

Additional observations from a re-analysis of the deposited data

Results flagged for a closer look

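The ATRA effect on GPRC5B was smaller in hyperoxia than in normoxia, with a log2 difference of -1.51 (SE 0.19) against no vehicle and -1.07 (SE 0.16) against the mean of both control groups. It is listed because the difference between the oxygen exposures passed the adjusted threshold in the fit over all genes. The gene was chosen for its ATRA effect in these libraries, so this is a description. Against vehicle the difference was -0.63 (SE 0.19) and did not pass. The difference against no vehicle passed in 11 of 13 alternatives, and it did not pass without normoxia no vehicle replicate 1 (-1.47) or without normoxia no vehicle replicate 2 (-1.51). Against the mean of both control groups it passed in 6 of 17.

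IFFO2 is listed because its oxygen effect had opposite signs with ATRA and with no vehicle: all 3 hyperoxia ATRA libraries lay below the normoxia ATRA libraries, while both hyperoxia no vehicle libraries lay above those of normoxia. With vehicle it was -0.60 (log2, SE 0.18), the same sign as with ATRA, and the no vehicle value of 0.23 was 0.05 without hyperoxia no vehicle replicate 1. Its ATRA effect differed by -1.30 (log2, SE 0.23) against no vehicle, which did not pass the adjusted threshold, and by -1.12 without hyperoxia no vehicle replicate 1.

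In 5 members every vehicle library lay below the no vehicle libraries in hyperoxia and above them in normoxia. Of all genes, 14.6% lay so in hyperoxia and 16.1% in normoxia. The share of all genes with both was not computed, so nothing is read from the count. The difference between the vehicle effects, a contrast added after seeing the data, was -1.20 (log2, SE 0.28) for VSIR, -0.88 (SE 0.21) for GPRC5B, -0.87 (SE 0.25) for MFGE8, -0.83 (SE 0.25) for IFFO2 and -0.29 (SE 0.16) for GPRC5A. None of these 5 passed the adjusted threshold (adjusted p = 0.869 for each, edgeR's quasi-likelihood test). The 5 were picked for this same pattern in these libraries, so the p-values are no test of it. Without hyperoxia no vehicle replicate 1 they were -0.94 for VSIR, -0.84 for GPRC5B, -0.77 for MFGE8, -0.65 for IFFO2 and -0.30 for GPRC5A. Each group held 2 libraries, and these differences, built from contrasts that the choice used, are a description.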

How the results depend on the processing

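All 580 values of the 10 members in the 6 ATRA contrasts kept their direction under every alternative run. Members called with ATRA against vehicle ranged from 5 to 9 in hyperoxia and 4 to 8 in normoxia when a library was left out (lowest without hyperoxia vehicle replicate 1, 5 members, and without normoxia vehicle replicate 2, 4 members). Against no vehicle they ranged from 4 to 9 in hyperoxia, and 1 passed in a fit of the groups compared alone. For the difference between ATRA effects, DESeq2 called 4 members and the fit without a filter 3, both against no vehicle and against the mean of both control groups, with ranges of 0 to 5 and 0 to 3 when a library was left out. For oxygen with vehicle the groups compared alone called 8 members, and leaving out a library 0 to 2. With no vehicle the groups compared alone called 0. Counts over all genes moved with these settings too, so nothing is read from the counts of members. For oxygen the groups compared alone called 4665 genes with vehicle, against 1420 in the fit of 14, and 58 with no vehicle, against 2324. For the difference between ATRA effects against no vehicle, DESeq2 called 31 genes and the fit without a filter 57, against 3. Against the mean of both control groups they called 63 and 50, against 6. Without hyperoxia no vehicle replicate 2, which leaves in that group only the library that stood apart, 1 member passed for vehicle against no vehicle in hyperoxia (range 0 to 1) and 4 for the difference between vehicle effects (range 0 to 4), with the lone library assumed to vary like the other groups. The causes were not tested. Small values turned sign: for oxygen with vehicle GPRC5B was -0.02 with DESeq2, -0.03 with RLE size factors and -0.14 to 0.15 with a library left out. With a library left out, vehicle against no vehicle ranged in hyperoxia from -0.12 to 0.22 for PTPRJ and from -0.29 to 0.00 for TNFAIP2. In normoxia it ranged from -0.22 to 0.22 for ELF3, -0.06 to 0.35 for TNFAIP2, -0.15 to 0.12 for EPB41L1, -0.20 to 0.11 for TGM2 and -0.10 to 0.00 for PTPRJ. The difference between vehicle effects ranged from -0.07 to 0.27 for PTPRJ and from -0.27 to 0.04 for TGM2. Over all genes, the fit of 10 libraries called 331 genes with ATRA against vehicle in hyperoxia and 187 in normoxia, against 116 and 70 in the fit of 14, and in it all 10 members passed at both exposures. For oxygen it called 2616 genes with vehicle, against 1420, and 3391 with ATRA, against 1975. No paired analysis was possible because the labels give no replicate numbers shared between groups.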

Other observations

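The library whose title names hyperoxia and whose treatment label names adipogenic differentiation was put in no group. Its raw counts were 2078 for TNFAIP2, 2652 for GPRC5A, 1694 for TGM2, 895 for PTPRJ, 798 for MFGE8, 727 for EPB41L1, 507 for ELF3, 362 for VSIR, 333 for GPRC5B and 230 for IFFO2.

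Other NF-kB targets differed with oxygen. Of 19 tested, 7 rose in hyperoxia with vehicle, 9 with no vehicle and 5 with ATRA, where 4.62%, 7.57% and 6.45% of all genes did, and 0 fell in any of the 3 comparisons, with median log2 fold changes of 0.66, 0.82 and 0.39 (edgeR, adjusted over all genes). Without hyperoxia no vehicle replicate 1, 9 of 20 tested rose with no vehicle (median 0.82). Whether the oxygen effect on the list differed between treatments was not tested.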
